A study of Mus musculus with 9 samples.

Results

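The genes described here export iron from the cell (Slc40a1), store it (Fth1 and Ftl1), break down haem (Hmox1, Blvra and Blvrb), take up or move iron (Tfrc, Slc11a1 and Slc11a2) or bind bacterial iron carriers (Lcn2). These 10 genes were taken by symbol from the 55401 genes of the deposited table, and all 10 were among the 12819 genes that were tested because their mean over the 9 columns reached 1 TPM. TPM gives the part of a library that belongs to a gene after correction for length, so that each column adds up to nearly the same total. The genes were chosen by function with earlier results of these data in view, and selected on measured values to that extent, since Slc40a1 and Hmox1 had stood out by their TPM in LPS + Ska compared with LPS. The values of the 10 genes in LPS + Ska compared with LPS are therefore given as a description and without a p-value. The other comparisons, LPS with DMSO and LPS + Ska with DMSO, were tested, but they share columns with the first, so their p-values are not independent of the choice of genes.

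RNA came from RAW264.7, a macrophage line of WT genotype from a tumour that Abelson murine leukemia virus induced in a male mouse. The cells received the vehicle DMSO, DMSO with LPS (called LPS here), or LPS with skatole (LPS + Ska), each for 24 h per the labels, while the study's RNA-seq methods give a longer time. LPS is a bacterial wall component that drives macrophages towards the inflammatory M1 state, and skatole is an indole compound. Each of the 3 groups held 3 columns, numbered 5, 6 and 7, and no source says whether these were separate cultures, so p-values measure only the spread between these samples, which may be technical. All cells are 1 immortalised line, which limits how far they stand for macrophages of a tissue.

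The columns of the treated groups were not independent. In LPS and in LPS + Ska, replicate 5 equalled the mean of replicates 6 and 7 within 1e-05 TPM in every gene above 0 in all columns of the group, which was 17950 of 17950 genes and 17658 of 17658 genes. A DMSO column met the same condition in at most 0.0636% of 15721 genes. The tie held for every one of the 10 genes in both treated groups, so these groups hold at most 2 independent values per gene. Their SD below is that of the 3 deposited columns, which may not be measured values, and n = 3 counts columns. Recomputation from 2 recovered values per treated group changed the call of 0 of the 10 genes in the comparisons with DMSO. The SE and p-values below treat the 3 deposited columns as independent, which the tied columns are not. With recovered values, the adjusted p by limma in LPS compared with DMSO was 7.1e-06 in place of 3.7e-07 for Slc40a1. For Blvrb it was 3e-06 in place of 3.8e-06. Depth is unknown because TPM does not keep it. The macrophage markers were present, with 8 of 8 reaching a mean of 1 TPM. Their summed TPM was 12400 to 13370 in DMSO, 7341 to 7739 in LPS and 13670 to 13930 in LPS + Ska. Most of each sum was Lyz2, at a mean of 9151, 4423 and 10061 TPM in that order. In the same order Csf1r had 835, 522 and 467 TPM, Spi1 408, 233 and 230, and Cd68 839, 657 and 608. Adgre1 had 24.2, 20.7 and 19.7 TPM, while Cd14 rose, at 1296, 1523 and 2218 TPM. Itgam (66.0, 61.2 and 80.7 TPM) and Ptprc (115, 101 and 113 TPM) had their lowest mean in LPS. Of the fibroblast, T cell, B cell and erythroid markers, 0 reached a mean of 1 TPM, and of the 4 neutrophil markers 1 did, S100a8, at 0.695 to 3.07 TPM in DMSO, 0.445 to 1.44 TPM in LPS and 1.14 to 2.30 TPM in LPS + Ska. The highest summed TPM of the erythroid list in any column was 1.16. In these bulk samples, fewer cells of a type and less RNA per cell cannot be told apart.

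Macrophages recycle iron: they engulf spent red cells, open the haem ring with haem oxygenase, keep the freed iron in ferritin cages or release it through ferroportin, the Slc40a1 product. The haem ring becomes biliverdin, which the biliverdin reductases Blvra and Blvrb reduce further. Iron regulatory proteins tie this system to the iron supply at the level of mRNA. When iron is scarce, they bind a short hairpin, the iron-responsive element, which in a 5′ UTR blocks translation and in the 3′ UTR of Tfrc protects the mRNA from decay. RNA-seq measures the mRNA and not its translation.

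The hairpins are printed because they are the sequences this control reads, and they show where the letters of one occur in the UTRs of the 10 mRNAs. Transcripts of the GENCODE M21 annotation (GRCm38, the mm10 build of the submitters' notes) were searched for a C, then any 5 bases, then the loop CAGTGN, with the 5 bases on either side of the loop able to pair. For the 10 genes, only matches in UTRs were kept, and any in coding sequence were not read. In the UTRs, a match with 5 of 5 pairs was found 7 times in 4 of the 10 genes. Of 21877 coding genes, 0.142% had such a match in a 5′ UTR, 0.59% in a 3′ UTR and 0.64% in coding sequence. The bulged C and the loop are in capitals, each sequence is 27 bases long and is written 5′ to 3′ on the gene's strand. The first 3 lie in a 5′ UTR and the last 4 lie in exon 19 of Tfrc, in its 3′ UTR. Exon numbers are those of 1 transcript each. The Fth1 element lay in 4 transcripts, among which its exon number may differ.
Slc40a1, exon 1, chr1:45925466-45925492, minus strand: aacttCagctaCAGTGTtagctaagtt
Fth1, exon 2, chr19:9982733-9982759, plus strand: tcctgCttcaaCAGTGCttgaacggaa
Ftl1, exon 1, chr7:45459780-45459806, minus strand: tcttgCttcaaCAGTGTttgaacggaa
Tfrc, chr16:32631220-32631246, plus strand: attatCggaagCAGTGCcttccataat
Tfrc, chr16:32631599-32631625, plus strand: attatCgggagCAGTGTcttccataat
Tfrc, chr16:32631664-32631690, plus strand: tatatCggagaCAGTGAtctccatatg
Tfrc, chr16:32631711-32631737, plus strand: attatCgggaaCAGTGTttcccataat

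The best UTR match in Slc11a2 had 4 of 5 pairs and lay in the 3′ UTR, exon 16, at chr15:100395154-100395180 on the minus strand.
Slc11a2: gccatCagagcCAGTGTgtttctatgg

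The genes with a full match in the 5′ UTR were thus the exporter and both ferritin chains. A match is a description of the letters and not proof of binding. The RefSeq promoter table (GRCm38.p6, 250 bases before to 50 after each gene start) held 7 of the 10 genes, without Slc40a1, Hmox1 and Slc11a2. The core of the antioxidant response element, TGACNNNGC on either strand, was in 1 of the 10 promoters of these 7 genes, that of Blvra. It was in 12.4% of all 32851 promoters.

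With LPS, the mRNA of the exporter Slc40a1, the ferritin light chain Ftl1, the haem breakdown enzymes Hmox1 and Blvrb and the metal transporter Slc11a1 fell, and that of the transferrin receptor Tfrc rose. The metal transporter Slc11a2 was also called higher, a call that was lost without any of 3 single columns, and Lcn2 was detected in the treated groups only. Calls required both an adjusted p (Benjamini-Hochberg, over all tested genes) below 0.05 in limma and a fold change above 1.5 or below 0.67. Fold changes are on log2(TPM + 1), where low genes change by less than their TPM do. In LPS compared with DMSO, 3 of the 10 genes were called higher and 5 lower, whereas 12.7% of all tested genes were called higher and 20.0% lower. One of the genes called higher against DMSO in both treated groups is Lcn2, which had to differ because it is listed at 0 in DMSO and passed the filter only through the treated groups. In LPS + Ska compared with DMSO, 2 were called higher and 2 lower, against 11.4% and 25.3% of all tested genes. In LPS + Ska compared with LPS, the comparison behind the choice of genes, 5 were past the limits upward and 1 downward, against 3.35% and 6.14% of all tested genes. The median log2 fold change of the 10 genes was -0.46, 0.32 and 0.53 in the order given, beside -0.07, -0.18 and -0.10 for all tested genes. Median-ratio scaling moved the all-gene median of LPS + Ska compared with DMSO from -0.18 to -0.0016, so differences of that size depend on the scaling. All 3 comparisons share groups with each other, so the counts are not separate observations.

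**Figure D1:**
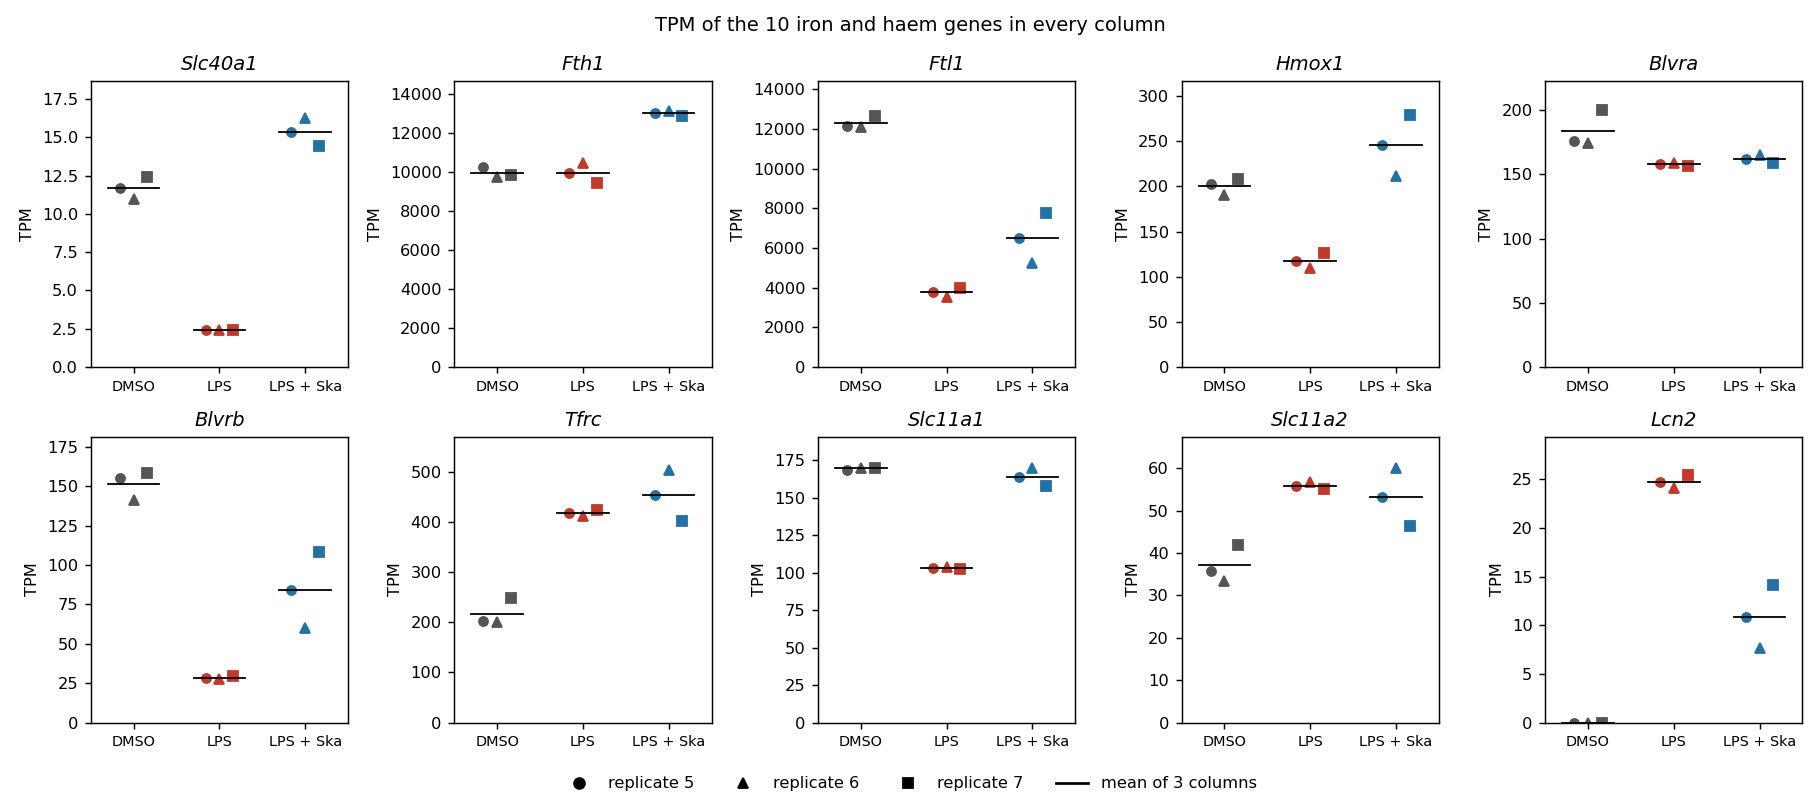
TPM (vertical axes, linear and starting at 0) of the 10 genes in the DMSO, LPS and LPS + Ska columns, with 1 symbol per replicate number and a line at the mean of 3 columns. Slc40a1 lies between 2.40 and 2.43 TPM in LPS and between 11.0 and 16.3 TPM in the other groups, and Lcn2 is listed at 0 in DMSO.

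Slc40a1 (ENSMUSG00000025993, chr1:45908068-45926523, minus strand) encodes ferroportin, the iron exporter of vertebrate cells. It had 11.7, 11.0 and 12.4 TPM in DMSO replicates 5, 6 and 7, or 11.7 ± 0.728 (SD, n = 3). With LPS it had 2.41, 2.43 and 2.40 TPM, or 2.41 ± 0.0187 (SD, n = 3). With LPS + Ska it had 15.4, 16.3 and 14.4 TPM, or 15.4 ± 0.936 (SD, n = 3). The LPS columns were thus the lowest, the LPS + Ska columns the highest, and no groups overlapped. Slc40a1 fell by 1.89 on the log2 scale in LPS compared with DMSO (SE 0.09, adjusted p = 3.7e-07 by limma), and the mean TPM in LPS was 0.207 of that in DMSO. LPS + Ska stood 2.26 above LPS on the log2 scale (SE 0.09), a ratio of mean TPM of 6.36. Compared with DMSO, LPS + Ska was 0.37 higher (SE 0.09, adjusted p = 0.0058), a ratio of 1.31, and this passed the p threshold but not the fold limit. By its level, Slc40a1 was the ninth of the 10 genes in DMSO and in LPS + Ska and the last in LPS, below Lcn2.

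The 5 tested genes whose log2(TPM + 1) was most like that of Slc40a1 over the 9 columns were Lyz2, Cat, Mettl7a1, 9230102O04Rik and Casp1. Their Pearson r with Slc40a1 was 0.995, 0.993, 0.987, 0.985 and 0.984, and all points share 3 groups and the tied columns, so r is a description. Lyz2, the macrophage lysozyme, had 9151 ± 453 TPM in DMSO, 4423 ± 204 in LPS and 10061 ± 146 in LPS + Ska (SD, n = 3 each). Lyz2 is also the most abundant of the macrophage markers, and its TPM moved with Slc40a1, which is how it was chosen. The markers Csf1r, Spi1, Cd68 and Adgre1 instead had their lowest mean in LPS + Ska. The part of the marker level in the Slc40a1 values was not tested. Cat encodes catalase, which breaks down hydrogen peroxide, and had 143 ± 10.2, 62.3 ± 2.99 and 190.0 ± 8.70 TPM in DMSO, LPS and LPS + Ska (SD, n = 3 each). Like Slc40a1, these genes were lowest in LPS, which follows from their choice by r and is no separate result.

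Of the ferritin chains, the light chain fell with LPS and the heavy chain was not called. Fth1 (ENSMUSG00000024661, chr19:9980598-9985098, plus strand) encodes the heavy chain, which oxidises iron for storage. Its values were 10264, 9732 and 9824 TPM in DMSO, 9919, 10421 and 9416 TPM in LPS, and 12996, 13126 and 12867 TPM in LPS + Ska, in the order of replicates 5, 6 and 7. The DMSO and LPS columns overlapped, and every LPS + Ska column lay above both. The log2 fold change of LPS compared with DMSO was -0.0040 (SE 0.06, adjusted p = 0.96 by limma), a sign that turned with median-ratio scaling (0.09). LPS + Ska was 0.39 above DMSO (SE 0.06, adjusted p = 0.00023), inside the fold limits, and also 0.39 above LPS. With median-ratio scaling its difference from DMSO was 0.58, at the edge of the fold limit and still not called.

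Ftl1 (ENSMUSG00000050708, chr7:45457944-45459884, minus strand) encodes the light chain, which helps iron form a mineral core. Its TPM was 12121, 12092 and 12642 in DMSO, 3759, 3525 and 3994 in LPS, and 6503, 5263 and 7742 in LPS + Ska. The groups did not overlap, and LPS + Ska lay between the others with the widest spread, 6503 ± 1239.7 (SD, n = 3). Ftl1 fell by 1.71 on the log2 scale in LPS compared with DMSO (SE 0.12, adjusted p = 3.3e-06 by limma) and by 0.94 in LPS + Ska compared with DMSO (SE 0.12, adjusted p = 0.00011). LPS + Ska stood 0.77 above LPS (SE 0.12). Ftl1 has near-identical copies elsewhere in the genome that can share its reads, so its level is uncertain to that extent. The copies Ftl1-ps1, Ftl2-ps and Ftl1-ps2 held 3.72% to 4.87% of the summed Ftl1 and copy TPM in DMSO, 4.20% to 4.37% in LPS and 1.77% to 2.72% in LPS + Ska. The tested copies were lower in both treated groups than in DMSO, with Ftl1-ps1 at -1.76 in LPS (adjusted p = 0.00063) and -1.88 in LPS + Ska (adjusted p = 0.00037). Ftl2-ps was at -1.53 (adjusted p = 3.9e-05) and -1.84 (adjusted p = 1e-05). Between LPS + Ska and LPS, neither copy passed the test, at -0.12 (SE 0.29, adjusted p = 0.79) for Ftl1-ps1 and -0.31 (SE 0.16, adjusted p = 0.18) for Ftl2-ps, while Ftl1 itself stood higher.

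The balance of the chains within a column follows from these levels. The ratio of Fth1 to Ftl1 TPM was 0.847, 0.805 and 0.777 in DMSO, 2.64, 2.96 and 2.36 in LPS, and from 1.66 to 2.49 in LPS + Ska. Light chain mRNA was thus the more abundant in DMSO only, and the ratios of LPS and LPS + Ska overlapped. With the copies added to Ftl1, the ratio was 0.748 to 0.806, 2.26 to 2.83 and 1.62 to 2.45. Fth1 and Ftl1 together made up 2.18% to 2.25% of all TPM in DMSO, 1.34% to 1.39% in LPS and 1.84% to 2.06% in LPS + Ska. By rank among all genes, Fth1 was 6 or 7 in DMSO, 8 in LPS and 4 to 7 in LPS + Ska, and Ftl1 was 2 to 4, 18 to 22 and 13 to 17.

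**Figure D2:**
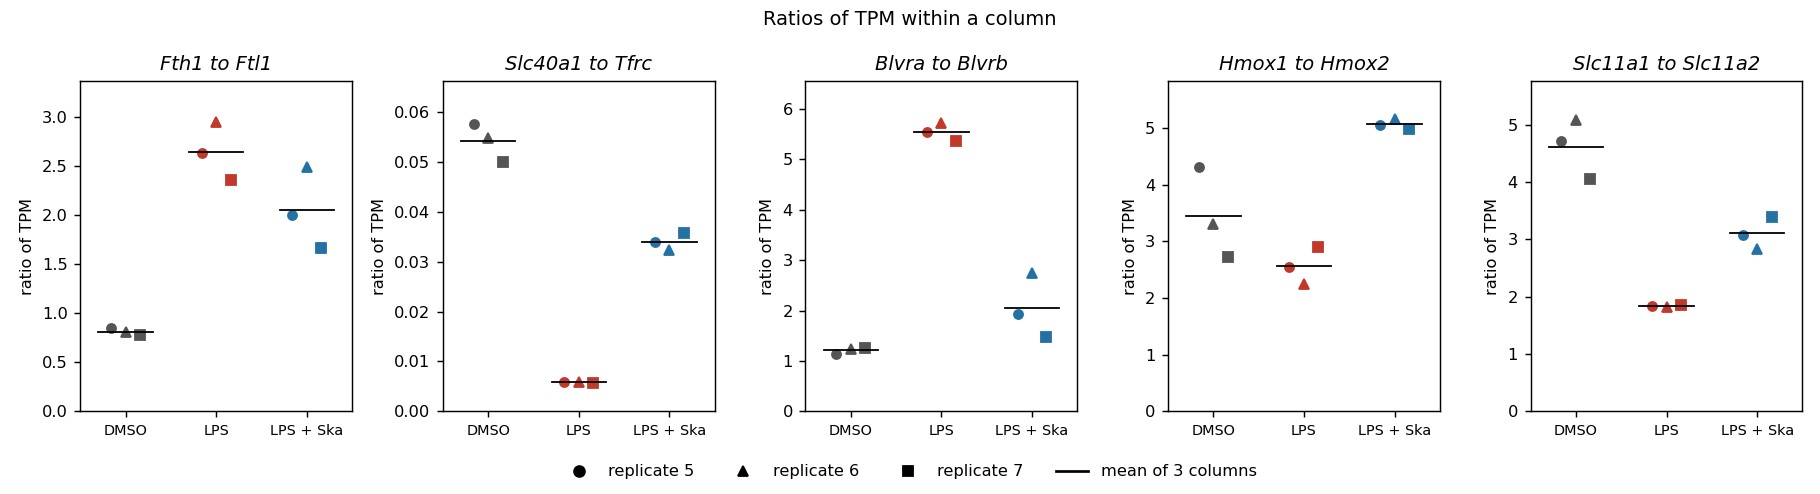
Ratios of TPM within a column (vertical axes, linear and starting at 0) for 5 gene pairs in DMSO, LPS and LPS + Ska, with 1 symbol per replicate number and a line at the mean. Fth1 to Ftl1 lies below 1 in DMSO and between 1.66 and 2.96 in the treated groups, and Slc40a1 to Tfrc is lowest in LPS.

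Hmox1 (ENSMUSG00000005413, chr8:75093621-75100589, plus strand) encodes the inducible haem oxygenase, which opens haem into biliverdin, iron and carbon monoxide. It had 203, 191 and 208 TPM in DMSO, 118, 109.8 and 126 TPM in LPS, and 245, 212 and 279 TPM in LPS + Ska. LPS was the lowest group and LPS + Ska the highest, with a gap of few TPM between the highest DMSO and the lowest LPS + Ska column. In LPS compared with DMSO, Hmox1 fell by 0.76 on the log2 scale (SE 0.10, adjusted p = 0.00012 by limma). LPS + Ska stood 1.05 above LPS (SE 0.10), a ratio of mean TPM of 2.08. Compared with DMSO it was 0.28 higher (SE 0.10, adjusted p = 0.027), inside the fold limits. The adjusted p by limma of this difference passed above the threshold with no filter (0.071) and without DMSO replicate 5 (0.056) or DMSO replicate 6 (0.089). It did so also without LPS + Ska replicate 5 (0.070) or LPS + Ska replicate 7 (0.077), and was lowest, at 0.0024, without LPS + Ska replicate 6. The constitutive haem oxygenase Hmox2 was called in none of the 3 comparisons, with log2 fold changes of -0.35 (SE 0.16, adjusted p = 0.092), -0.29 (SE 0.16, adjusted p = 0.15) and 0.06 (SE 0.16, adjusted p = 0.80) for LPS with DMSO, LPS + Ska with DMSO and LPS + Ska with LPS. The ratio of Hmox1 to Hmox2 was 3.46 ± 0.803 in DMSO, 2.57 ± 0.329 in LPS and 5.07 ± 0.0869 in LPS + Ska (SD, n = 3 each), and LPS overlapped DMSO while LPS + Ska overlapped neither.

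Of the biliverdin reductases, Blvrb was called lower than DMSO in both treated groups and Blvra in neither, and the difference between the genes was not tested. Blvrb (ENSMUSG00000040466, chr7:27447978-27466144, plus strand), which reduces biliverdin IXβ and also flavins, had 155, 141 and 159 TPM in DMSO, 28.5, 27.8 and 29.2 TPM in LPS, and 84.1, 60.0 and 108 TPM in LPS + Ska. The groups did not overlap, and LPS + Ska lay between the others. Blvrb fell by 2.37 on the log2 scale in LPS compared with DMSO (SE 0.17, adjusted p = 3.8e-06 by limma), the largest fall among the 10 genes, and by 0.88 in LPS + Ska compared with DMSO (SE 0.17, adjusted p = 0.0014). LPS + Ska stood 1.49 above LPS (SE 0.17), a ratio of mean TPM of 2.95.

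Blvra (ENSMUSG00000001999, chr2:127070665-127097084, plus strand), which reduces biliverdin IXα to bilirubin, had 176, 175 and 200.4 TPM in DMSO, 158, 159 and 157 TPM in LPS, and 162, 165 and 159 TPM in LPS + Ska. Every treated column lay below every DMSO column, and LPS and LPS + Ska overlapped. Its log2 fold change was -0.21 for LPS (SE 0.06, adjusted p = 0.012) and -0.18 for LPS + Ska (SE 0.06, adjusted p = 0.024) compared with DMSO, both inside the fold limits, and the sign of the second turned with median-ratio scaling (0.01). With recovered values, the adjusted p by limma was 0.033 for LPS and 0.059 for LPS + Ska, the latter above the threshold. LPS + Ska differed from LPS by 0.03 (SE 0.06). The ratio of Blvra to Blvrb was 1.21 ± 0.0676 in DMSO, 5.55 ± 0.181 in LPS and 2.05 ± 0.649 in LPS + Ska (SD, n = 3 each). None of these groups of ratios overlapped.

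**Figure D3:**
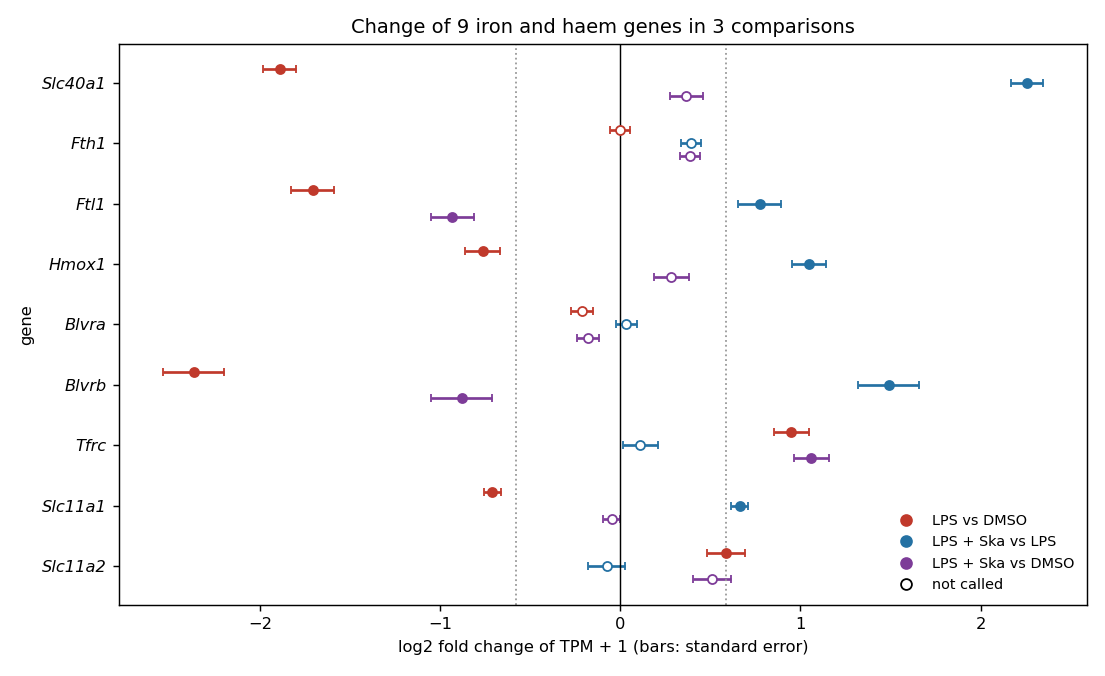
Log2 fold change of TPM + 1 (horizontal axis) of 9 of the 10 genes in 3 comparisons, with bars for the standard error and dotted lines at the fold limits of 1.5 and 0.67, and with filled points past both limits, which in LPS + Ska compared with LPS is a description. Lcn2 is left out because it is listed at 0 in DMSO. Slc40a1, Ftl1, Hmox1, Blvrb and Slc11a1 lie left of the lower limit for LPS compared with DMSO and right of the upper limit for LPS + Ska compared with LPS, 2 comparisons that share the LPS columns.

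Tfrc (ENSMUSG00000022797, chr16:32608920-32632794, plus strand) encodes the transferrin receptor, the main route by which transferrin iron enters cells, and carries 4 of the elements printed above. It had 202, 199.7 and 248 TPM in DMSO, 417, 411 and 423 TPM in LPS, and 453, 503 and 402 TPM in LPS + Ska. Every treated column lay above every DMSO column, and LPS and LPS + Ska overlapped. Tfrc rose by 0.95 on the log2 scale in LPS (SE 0.10, adjusted p = 3.6e-05 by limma) and by 1.06 in LPS + Ska (SE 0.10, adjusted p = 1.5e-05), each compared with DMSO. The LPS + Ska value differed from that of LPS by 0.11 (SE 0.10). The ratio of Slc40a1 to Tfrc, exporter to importer mRNA, was 0.0542 ± 0.00390 in DMSO, 0.00578 ± 0.000128 in LPS and 0.0341 ± 0.00173 in LPS + Ska (SD, n = 3 each), with no overlap between groups.

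Slc11a1 (ENSMUSG00000026177, chr1:74375195-74386062, plus strand) encodes Nramp1, which moves divalent metals out of the phagosome. It had 169, 170.0 and 170.1 TPM in DMSO, 103, 104 and 103 TPM in LPS, and 164, 170.1 and 158 TPM in LPS + Ska. LPS stood apart below the other groups, which overlapped. Slc11a1 fell by 0.71 on the log2 scale in LPS compared with DMSO (SE 0.05, adjusted p = 2.1e-06 by limma). LPS + Ska stood 0.66 above LPS (SE 0.05), and its difference from DMSO was -0.05 (SE 0.05, adjusted p = 0.38), a sign that turned with median-ratio scaling (0.14) and on rescaling without mitochondrial-genome and ribosomal protein genes (0.0082).

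Slc11a2 (ENSMUSG00000023030, chr15:100387898-100425072, minus strand) encodes DMT1, which carries iron out of the endosome after transferrin uptake. Its TPM was 35.8, 33.5 and 41.9 in DMSO, 55.9, 56.7 and 55.2 in LPS, and 53.3, 60.0 and 46.5 in LPS + Ska. Treated columns lay above DMSO, and LPS and LPS + Ska overlapped. Slc11a2 was called higher in LPS compared with DMSO, at a log2 fold change of 0.59 (SE 0.10, adjusted p = 0.00099 by limma), at the edge of the fold limit. The call was lost without DMSO replicate 5 (0.57), DMSO replicate 6 (0.52) or LPS replicate 6 (0.58). Its value in LPS + Ska compared with DMSO was 0.51 (SE 0.10, adjusted p = 0.0020) and not called, but it was called with median-ratio scaling (0.70) and without DMSO replicate 7 (0.60) or LPS + Ska replicate 7 (0.60). The ratio of Slc11a1 to Slc11a2 was 4.62 ± 0.517 in DMSO, 1.84 ± 0.0188 in LPS and 3.10 ± 0.282 in LPS + Ska (SD, n = 3 each), and no group overlapped another.

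Lcn2 (ENSMUSG00000026822, chr2:32384633-32388252, minus strand) encodes lipocalin 2, which binds the iron carriers that bacteria secrete. It was listed at 0 in every DMSO column, so no fold against DMSO is given. It had 24.8, 24.1 and 25.4 TPM in LPS and 10.9, 7.61 and 14.2 TPM in LPS + Ska, and these groups did not overlap. It passed the filter only through the treated groups, so its calls against DMSO are no test and no p is given. LPS + Ska stood below LPS, with a log2 fold change of -1.15 (SE 0.18) and a ratio of mean TPM of 0.440. It was the only member of the 10 past the limits downward in that comparison. The list of LPS response genes (Nos2, Acod1, Il1b, Tnf and Ptgs2), read as a check of the labels, summed to 69.3 to 125 TPM in DMSO, 637 to 664 in LPS and 585 to 668 in LPS + Ska. The sum hides members that moved differently between LPS and LPS + Ska. Mean TPM was 28.1 and 10.2 for Il1b, 37.5 and 28.5 for Nos2, and 216 and 178 for Acod1. For Ptgs2 it was 158 and 203, and for Tnf 210 and 207.

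Within a column, TPM can be compared between genes because it is scaled by length. In DMSO the order from the highest mean TPM was Ftl1, Fth1, Tfrc, Hmox1, Blvra, Slc11a1, Blvrb, Slc11a2, Slc40a1 and Lcn2, in which Tfrc overlapped Hmox1 and Hmox1 overlapped Blvra. In LPS it was Fth1, Ftl1, Tfrc, Blvra, Hmox1, Slc11a1, Slc11a2, Blvrb, Lcn2 and Slc40a1, and no neighbours overlapped. In LPS + Ska it was Fth1, Ftl1, Tfrc, Hmox1, Slc11a1, Blvra, Blvrb, Slc11a2, Slc40a1 and Lcn2, with overlaps between Slc11a1 and Blvra and between Blvrb and Slc11a2. The ferritin chains led in all groups, Tfrc was next, and Blvrb dropped below Slc11a2 in LPS alone.

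Other genes of iron and haem handling were read from a list of 56 genes in 7 roles, of which 43 passed the filter. This list was also written with earlier results of these data known. Its p-values, also in LPS + Ska compared with LPS, are therefore not independent of the choice of genes. In LPS compared with DMSO, 4 were called higher and 12 lower, against 12.7% and 20.0% of all tested genes, with a median log2 fold change of -0.35 beside -0.07. In LPS + Ska compared with DMSO, 2 were called higher and 12 lower, against 11.4% and 25.3% of all tested genes, with a median of -0.32 beside -0.18, and with median-ratio scaling the split was 5 higher and 6 lower. In LPS + Ska compared with LPS, 3 were called higher and 2 lower, against 3.35% and 6.14% of all tested genes, with a median of -0.04 beside -0.10. The split in that comparison was 4 higher and 1 lower with median-ratio scaling, and 3 of the 43 were called in all without LPS replicate 5 or without LPS + Ska replicate 5.

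The uptake genes had the lowest median of the 7 roles in LPS compared with DMSO, -0.91 on the log2 scale, with 5 of 8 tested genes called lower and 1 higher, beside 20.0% and 12.7% of all tested genes. Slc48a1, which carries haem from the phagolysosome to the cytosol, had 49.7, 55.0 and 66.6 TPM in DMSO, 16.4, 16.1 and 16.7 TPM in LPS and 35.7, 35.5 and 35.8 TPM in LPS + Ska. The groups did not overlap, and LPS + Ska was intermediate. Slc48a1 fell by 1.73 on the log2 scale in LPS compared with DMSO (SE 0.10, adjusted p = 8.2e-07 by limma) and was higher in LPS + Ska than in LPS, at 2.11-fold (adjusted p = 0.00013). Steap3, a ferrireductase of the endosome, fell by 0.79 (adjusted p = 0.0056) and rose by 0.72 (adjusted p = 0.020) in the same comparisons, but the second call was lost without LPS replicate 5 (0.74), LPS replicate 6 (0.52) or LPS + Ska replicate 5 (0.72). Hfe, a partner of the transferrin receptor, fell by 1.18 in LPS (adjusted p = 3e-05) and by 1.25 in LPS + Ska (adjusted p = 1.8e-05) compared with DMSO, and Lrp1, the receptor for haem bound to haemopexin, fell by 1.13 (adjusted p = 2.4e-05) and 1.55 (adjusted p = 3e-06). The Lcn2 receptor gene Slc22a17 fell by 1.04 and 1.05 against DMSO. Bdh2, which has been linked to the synthesis of a mammalian siderophore, was higher with LPS, with 3.51, 5.64 and 4.84 TPM in DMSO, 19.1, 16.1 and 22.2 TPM in LPS and 11.8, 9.03 and 14.6 TPM in LPS + Ska.

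Bdh2 rose by 1.84 in LPS compared with DMSO (SE 0.20, adjusted p = 4.3e-05 by limma) and fell by 0.67 in LPS + Ska compared with LPS (SE 0.20, adjusted p = 0.032). The second call was lost with recovered values (-0.66), with median-ratio scaling (-0.57) and without LPS replicate 5 (-0.66), LPS replicate 7 (-0.56), LPS + Ska replicate 5 (-0.68) or LPS + Ska replicate 6 (-0.50). Among the partners of export, 2 of 7 genes were tested. Cp, the ferroxidase that works beside ferroportin, had 1.37, 2.18 and 2.16 TPM in DMSO, 3.81, 3.90 and 3.72 TPM in LPS, and 0.990, 1.45 and 0.533 TPM in LPS + Ska. At these low levels it rose by 0.74 with LPS (SE 0.20, adjusted p = 0.0088) and fell by 1.30 in LPS + Ska compared with LPS (SE 0.20, adjusted p = 0.0017). The hormone gene Hamp, whose product hepcidin closes ferroportin, the related gene Hamp2 and the ferroxidase Heph were below the filter. Flvcr1, described as a haem exporter and named after its values were seen, was called in none of the comparisons. It had 24.1 ± 1.55 TPM in DMSO, 23.6 ± 0.166 in LPS and 33.7 ± 4.30 in LPS + Ska (SD, n = 3 each). In LPS + Ska it passed the p threshold but not the fold limit, at 0.46 compared with DMSO (SE 0.09, adjusted p = 0.0021) and 0.49 compared with LPS (SE 0.09, adjusted p = 0.0054).

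Of the 10 tested genes of haem synthesis, 3 were called lower in LPS compared with DMSO, namely Ppox, Slc25a38 and Abcb6, at -0.88, -0.79 and -0.73 on the log2 scale, and 7 were not called, beside 20.0% of all tested genes called lower. Abcb6 was called no longer with median-ratio scaling (-0.64), with the compared groups alone or the replicate block (-0.73 in both), or without DMSO replicate 5 (-0.78), DMSO replicate 7 (-0.51), LPS replicate 5 (-0.76) or LPS replicate 7 (-0.45). Alas1, the first enzyme of haem synthesis, had 26.3, 21.4 and 22.3 TPM in DMSO, 16.4, 16.8 and 16.0 TPM in LPS and 29.4, 30.7 and 28.1 TPM in LPS + Ska. It rose by 0.81 in LPS + Ska compared with LPS (SE 0.09, adjusted p = 0.00032 by limma), the only gene of haem synthesis called there. Among 11 genes of mitochondrial iron and iron-sulphur clusters, the carrier Slc25a28 fell by 1.05 and the scaffold Iscu by 0.70 with LPS compared with DMSO, and Lyrm4 rose by 0.94. Between LPS + Ska and LPS, all 11 lay from -0.34 to 0.30, inside the fold limits. Among 7 genes of iron sensing and control, Ireb2, which encodes an iron regulatory protein, rose by 0.75 with LPS (SE 0.10, adjusted p = 0.00014). Aco1, the gene of the other iron regulatory protein, was at -0.30 in LPS (SE 0.09, adjusted p = 0.014) and -0.42 in LPS + Ska (SE 0.09, adjusted p = 0.0021) compared with DMSO, past the p threshold but inside the fold limits. With LPS, Keap1, the sensor that holds back Nrf2, fell by 0.75 and Zfp36, an mRNA decay factor, fell by 1.02. The 4 tested genes of storage and chaperones lay between -0.34 and 0.07 with LPS. The iron chaperone Pcbp1 fell by 0.69 in LPS + Ska compared with DMSO (SE 0.05, adjusted p = 5.4e-06), a fall inside the fold limits with median-ratio scaling (-0.50).

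**Figure D4:**
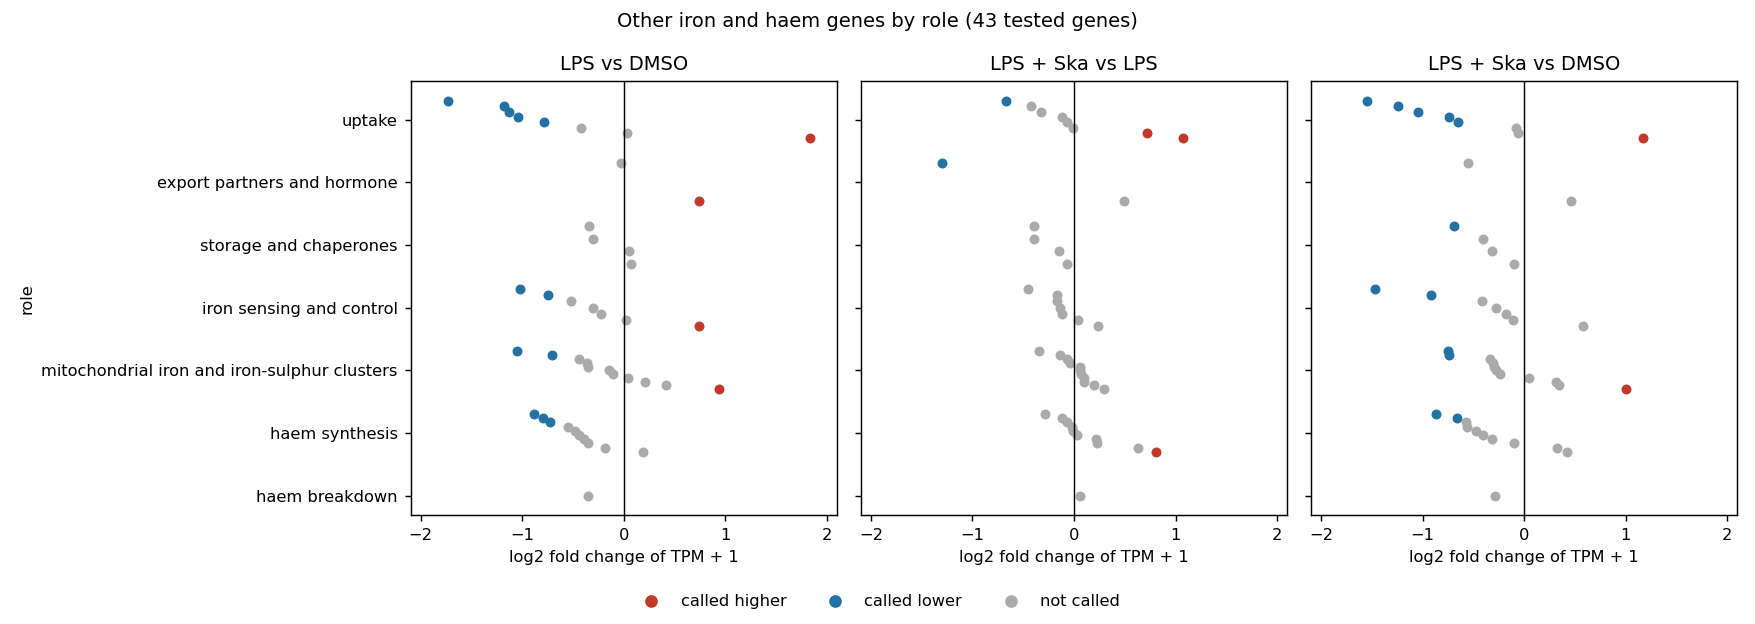
Log2 fold change of TPM + 1 (horizontal axes) of the 43 other tested iron and haem genes by role (vertical axis), in 3 comparisons, with 1 point per gene and colour for the call. With LPS compared with DMSO, 5 of the 8 uptake genes were called lower, beside 20.0% of all tested genes, and Slc48a1 at -1.73 lies farthest left. In LPS + Ska compared with LPS, 38 of the 43 genes were not called, beside 11603 of all 12819 tested genes.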

How the data were processed

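RNA from RAW264.7 cells given DMSO, LPS or LPS + Ska was sequenced by the authors, who deposited TPM for 55401 genes by Ensembl identifier. The submitters' processing notes name fastp 0.20.1, HISAT2 2.2.1, StringTie 2.0 and mm10, and the annotation is not given in the sources used here. Symbols were found for 55141 identifiers. Groups came from the labels, and 0 columns lacked a sample.

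The 10 genes, the lists and the tests were chosen with earlier results of these data known. Named genes were the 10, the genes of the other iron and haem list (those called in any comparison, with Hmox2, Flvcr1, Aco1 and the genes below the filter added for their role after their values were seen), the tested ferritin copies and the 5 genes most like Slc40a1.

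The fit was limma 3.58.1 in R 4.3.3 (lmFit, then eBayes allowing a trend with intensity) of log2(TPM + 1) in all 9 columns. It covered the 12819 genes whose mean reached 1 TPM, with Benjamini-Hochberg adjustment over all of them, and it was tested on simulated data. Settings varied were the pseudocount (0.1), the filter (none, or a mean of 5 TPM), the scaling (median ratio, or without mitochondrial-genome and ribosomal protein genes), the samples (compared groups alone, each column left out), the trend (none), a replicate block, recovered values (replicate 5 plus and minus 0.5 times its difference from replicate 6), and calls by adjusted p alone. The 0.5 in the recovered values assumes that replicates 6 and 7 lie farther from replicate 5 than the measured values did, which no source states. The search of transcripts for iron-responsive elements was added after the promoter search had been planned. Deviations of same-numbered columns from group means correlated at 0.384, 0.151 and 0.128 between LPS and LPS + Ska and at -0.032 to 0.080 otherwise. All 3 of the former exceed the latter, but the tie limits what they show. Replicate 5, as the mean of the other columns, cannot lie below the group mean on the log2 scale. Its correlation can therefore be positive without pairing. Replicates 6 and 7 of a tied group mirror each other and are not separate observations. Whether the numbers pair these groups is thus not known. The main fit has no block, and the blocked values are given in the closing section. Plots used matplotlib 3.10.9 (Python 3.11.15).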

Additional observations from a re-analysis of the deposited data

How the results depend on the processing

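Over 540 recomputed log2 fold changes of the 10 genes, 525 kept direction and call, 3 lost the call, 3 gained it and 9 changed sign. Many could not change direction, because the filter, trend, block and compared-groups settings leave the log2 fold change as it was. So does leaving out a column of a group outside the comparison. Leaving out a column of a tied group removes no independent value. The count of values that kept their call is therefore no measure of robustness. The call changes all concern Slc11a2 and stand beside its values. Sign changes concern genes near 0. Fth1 in LPS compared with DMSO was 0.087 with median-ratio scaling, 0.035 without mitochondrial-genome and ribosomal protein genes and -0.040 to 0.033 with a column left out. Slc11a1 in LPS + Ska compared with DMSO was 0.14 and 0.0082 under the same scalings, and Blvra was 0.014 with median-ratio scaling. Slc11a2 in LPS + Ska compared with LPS was 0.024 with median-ratio scaling and -0.17 to 0.015 with a column left out. The cause of these sign changes was not tested. Of 698 recomputed values over the 39 calls of other named genes, with the same limits, 671 kept direction and call and 27 lost the call. Those not given beside their values are, with median-ratio scaling, Iscu (-0.55), Mcoln1 (-0.55), Ppox (-0.48), Slc25a28 (-0.56) and Slc48a1 (-0.46), all in LPS + Ska compared with DMSO, and in the same comparison Ppox without DMSO replicate 6 (-0.43) and Slc48a1 without DMSO replicate 7 (-0.54). With no filter, Abcb6, Bdh2 and Steap3 lost the call through their p.

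By adjusted p alone, without the fold limits, 7734, 8116 and 3663 of all tested genes were called in LPS with DMSO, LPS + Ska with DMSO and LPS + Ska with LPS, in place of 4189, 4700 and 1216. The 10 genes then had 9 calls in LPS + Ska with DMSO in place of 4, and the other iron and haem list 32, 34 and 11 in place of 16, 14 and 5. With a column left out, that list had 3 to 5 calls in LPS + Ska with LPS. With median-ratio scaling the higher and lower calls of all genes were 2006 and 2091, 2222 and 2237, and 598 and 539, in place of 1630 and 2559, 1457 and 3243, and 429 and 787. With the replicate number as a block, in case the numbers pair the samples, the 10 genes had 8 and 4 calls in the comparisons with DMSO, as without it, and the other list had 15, 14 and 5 in the 3 comparisons. The block ended the call of Abcb6 in LPS with DMSO, changed no other call of a named gene and moved all-gene counts to 4235, 4729 and 1198. Recovered values gave 8 and 4 calls among the 10 genes in the comparisons with DMSO. The values of the 10 genes in LPS + Ska with LPS are a description under every setting. Precision is limited by at most 2 independent values per treated group and an unknown depth.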
